A study of Homo sapiens with 8 samples.

Results

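Human chromosome 19 carries the densest collection of C2H2 zinc finger genes in the genome, and the G4 ChIP-seq intervals at the start sites of its ZNF genes are described here. The genes were chosen by name and place: every protein-coding gene on chromosome 19 of hg19 whose symbol is ZNF, a number and at most 1 letter. The rule found 246 genes, which is 17.1% of the 1436 protein-coding genes of the chromosome, out of 19802 protein-coding genes on all chromosomes. It used no measured value.

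G4 ChIP-seq precipitates fragmented chromatin with an antibody against folded G-quadruplexes (G4s), four-stranded structures that form in guanine-rich DNA, and sequences the recovered DNA. The cells were asynchronous, untreated cultures of K562, which derives from chronic myelogenous leukemia, and of HepG2, which derives from hepatocellular carcinoma, and the labels name no agent or genotype that differs between the libraries of a line. Per line, the labels give 3 libraries precipitated with the G4 antibody and 1 of input DNA, whereas the deposited lists merge 8 replicates of K562 and 9 of HepG2, each from 3 independent experiments per the study's methods. Each line has a high-confidence list, which keeps a stretch present in 5 or more of 8 replicates (K562) or 6 or more of 9 (HepG2), and a lower-confidence list, for which 2 replicates suffice. The lists give positions alone, so depth is unknown, replicates cannot be compared and no test between the lines or against other genes was possible. The thresholds and replicate numbers differ between the lines, so a difference between K562 and HepG2 in the cells and one in how the lists were made cannot be told apart.

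Most ZNF genes of this chromosome encode KRAB zinc finger proteins: an array of C2H2 fingers reads DNA, and a KRAB domain recruits the co-repressor TRIM28 (KAP1), which brings in H3K9 methylation machinery. Many of these proteins are known to silence transposable elements. The family grew by tandem duplication, which left long runs of related genes with related promoters, so the genes are not independent of each other. A gene was scored "high" in a line when a high-confidence interval shares at least 1 bp with the 1 kb either side of any of its transcription start sites (TSSs), "lower" when a lower-confidence interval alone does, and "none" otherwise.

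The sequences under the intervals show that kinship. In the lines that follow, a stretch is written 5′ to 3′ in lower case with runs of 3 or more guanines in capitals, and positions are on hg19. The first set is shown because a guanine-rich stretch recurs beside the TSSs of 7 genes of 1 cluster, between 14 bp and 74 bp upstream, with at most 2 mismatches to the stretch at ZNF611, and 6 of the 7 are printed.
ZNF611 (chr19:53238356-53238381, plus strand): GGGGcctGGGcgaggtaGGGGcGGGG
ZNF888 (chr19:53426724-53426749, plus strand): GGGGcctGGGcgaggtaGGGGcGGGG
ZNF808 (chr19:53030834-53030859, minus strand): GGGGcctGGGcgaggtagcggcGGGG
ZNF816 (chr19:53466189-53466214, plus strand): GGGGcctGGGcgaggccGGGGcGGGG
ZNF765 (chr19:53898316-53898341, minus strand): cGGGcttGGGcgaggtaGGGGcGGGG
ZNF761 (chr19:53935150-53935175, minus strand): GGGGcctggacgaggcaGGGGcGGGG

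A high-confidence interval covered the stretch in K562 alone at ZNF611, ZNF888 and ZNF808, and in both lines at ZNF816 and ZNF761. ZNF765 was lower in both lines. All 7 genes that hold the stretch within 2 mismatches had an interval, and with the site not printed included, 5 were high in K562, 3 in HepG2 and 6 in at least 1 line. Among all 19802 genes, 1 further gene held it, so that 0.0404% of windows did. The stretch was picked because it recurs inside intervals, so these counts describe it and are no test.

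The second set was picked in the same way and has shorter guanine runs, so runs of 2 or more guanines are in capitals. It is shown because genes with the same letters beside the TSS had different calls.
ZNF714 (chr19:21264969-21264984, plus strand): GGagcGGacaGGacGG
ZNF431 (chr19:21324803-21324818, plus strand): GGagcGGacaGGacGG
ZNF724 (chr19:23433215-23433230, minus strand): GGagcGGacaGGGcGG
ZNF91 (chr19:23578298-23578313, minus strand): GGagcGGacaGGGcGG
ZNF728 (chr19:23186000-23186015, minus strand): GGagcGGacaGGGcGG
ZNF98 (chr19:22605167-22605182, minus strand): GGagcGGaaaGGGcGG
ZNF492 (chr19:22817092-22817107, plus strand): GGagcGGaaaGGGcGG
ZNF99 (chr19:22966972-22966987, minus strand): GGagcGGaaaGGGcGG

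ZNF714 and ZNF431 were high in both lines, and a HepG2 high-confidence interval covered the stretch at both. A K562 high-confidence interval covered it at ZNF431 and not at ZNF714, where the K562 call rests on 23 bp. ZNF724 and ZNF91 were high in HepG2 and none in K562, whereas ZNF728, with the same 16 bases at a like distance from its TSS, had no interval in any list. ZNF98, ZNF492 and ZNF99 share another version and had none either. Within 2 mismatches, 22 of the ZNF genes hold the stretch, 21 of them in the cluster from ZNF101 to ZNF254, and 7 of the 22 were high in at least 1 line, 7 were lower only and 8 had no interval. The stretch is common elsewhere too, at 108 other genes, so that 0.656% of all genes hold it. The share of 50-base windows within 1 kb of the TSS that recur elsewhere in the genome was 3.64% at ZNF724, 2.46% at ZNF91 and 3.74% at ZNF728, and 5.28%, 5.12% and 6.66% at ZNF98, ZNF492 and ZNF99. The part of recurring sequence, where short reads cannot be placed uniquely, in the calls was not tested.

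The next pair shows a canonical motif kept between neighbours. A canonical G4 motif is taken as 4 runs of 3 or more guanines, on either strand, with 1 to 7 bases between runs. The share of recurring 50-base windows was 22.9% at ZNF799 and 19.9% at ZNF443, against a family median of 1.79%, and its part in their calls was not tested. ZNF799 and ZNF443, which lie in 1 cluster, carry the motif on the coding strand, inside high-confidence intervals of both lines.
ZNF799 (chr19:12512090-12512112, minus strand): GGGccgtGGGGcGGGttcgtGGG
ZNF443 (chr19:12551927-12551949, minus strand): GGGGcgtGGGGcGGGttcgtGGG

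These stretches come from the reference genome, not from the cells. Over all ZNF genes, high-confidence intervals held 35 distinct canonical motif sites with 34 distinct sequences, where motifs on a strand were counted without overlap. The ZNF611 sequence was the 1 found at 2 sites, at ZNF611 and at ZNF888 (chr19:53426746-53426771). The ZNF888 copy printed above overlaps that site and was not counted.

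Across the family, more ZNF genes carried a high-confidence interval in HepG2 than in K562, the reverse of the order over all genes. In K562, 75 of the 246 genes were high (30.5%, 95% Wilson interval 25.1 to 36.5, which covers counting alone), against 35.8% of all protein-coding genes. In HepG2, 95 were high (38.6%, 32.8 to 44.8), against 30.9%. The background lies within the Wilson interval of the K562 share and below that of the HepG2 share.

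With intervals of either list counted, 131 ZNF genes had an interval in K562 (53.3%, against 50.3% of all genes) and 163 in HepG2 (66.3%, against 51.4%). The K562 share is near the background, and the HepG2 share is above it. Both lines were high at 55 ZNF genes (22.4%, against 24.4%), again near the background.

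The calls that differ between the lines leaned to HepG2. High in HepG2 and not in K562 were 40 ZNF genes (16.3%, against 6.49% of all genes), and 20 showed the opposite (8.13%, against 11.4%). With the other line's lower-confidence list empty as well, 17 were high in HepG2 with none in K562 (6.91%, against 2.45%), and 5 were high in K562 with none in HepG2 (2.03%, against 3.20%). No interval of any list was found at 64 ZNF genes (26.0%, 20.9 to 31.8), against 41.0% of all genes. A smaller share of ZNF genes than of all genes was thus without an interval, and 182 had one in at least 1 of the lists. This is not particular to these genes. No interval was found at 24.0% (19.3 to 29.6) of ZNF genes on other chromosomes and 31.2% (28.6 to 33.9) of other protein-coding genes on chromosome 19.

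**Figure D1:**
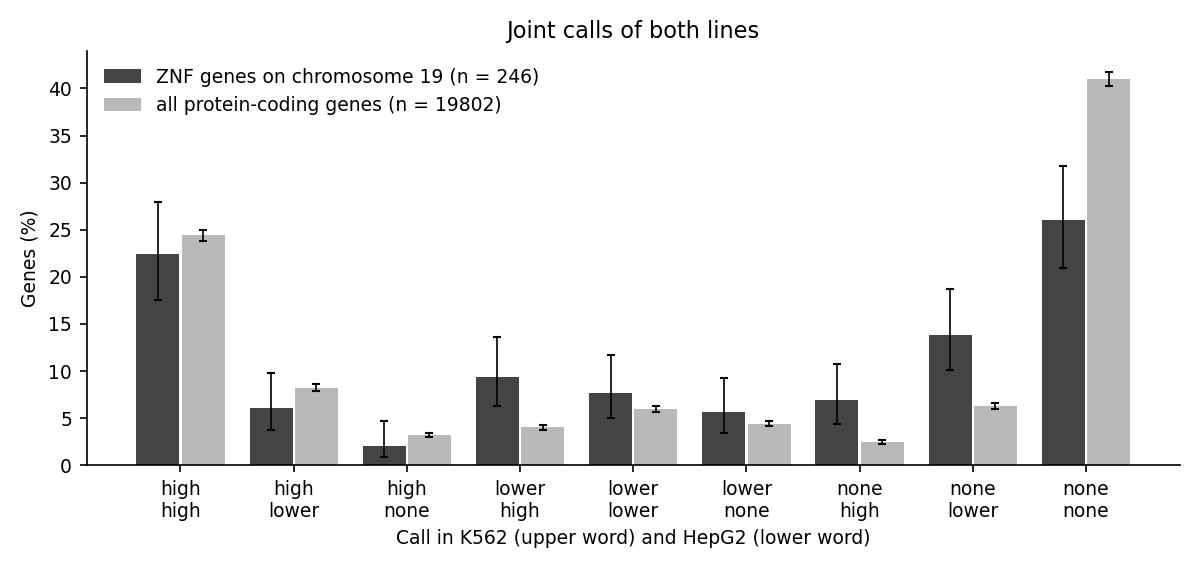
Share of genes (%) with each pair of calls in K562 (upper word) and in HepG2 (lower word), for the 246 ZNF genes of chromosome 19 (dark) and all 19802 protein-coding genes (pale); error bars are 95% Wilson intervals. The dark bar is below the pale one where both lines are none (26.0% and 41.0%) and above it where K562 is none and HepG2 is high (6.91% and 2.45%).

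The same chromosome and the same family elsewhere give other shares. Of the 1190 other protein-coding genes on chromosome 19, 49.5% (46.7 to 52.3) were high in K562 and 38.3% (35.6 to 41.1) in HepG2. Of 262 ZNF genes on other chromosomes, 46.9% (41.0 to 53.0) were high in K562 and 38.9% (33.2 to 45.0) in HepG2. The HepG2 shares of these groups lie near that of the chromosome 19 ZNF genes, and their K562 shares lie above its interval. The 101 other protein-coding genes inside the ZNF clusters were high in 26.7% (19.1 to 36.1) in each line, and 49.5% (40.0 to 59.1) of them had no interval in any list. Of the high-confidence intervals of chromosome 19, 8.57% lay at ZNF gene windows in K562 (90 of 1050) and 14.4% in HepG2 (112 of 779).

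The order of the genes along the chromosome shows where these calls fall. Runs of ZNF genes with at most 500 kb between neighbours gave 10 clusters of 5 or more genes, which hold 232 of the 246, and 14 genes lie outside them. Each cluster is named by its first and last gene and numbered from the end of the short arm.

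**Figure D2:**
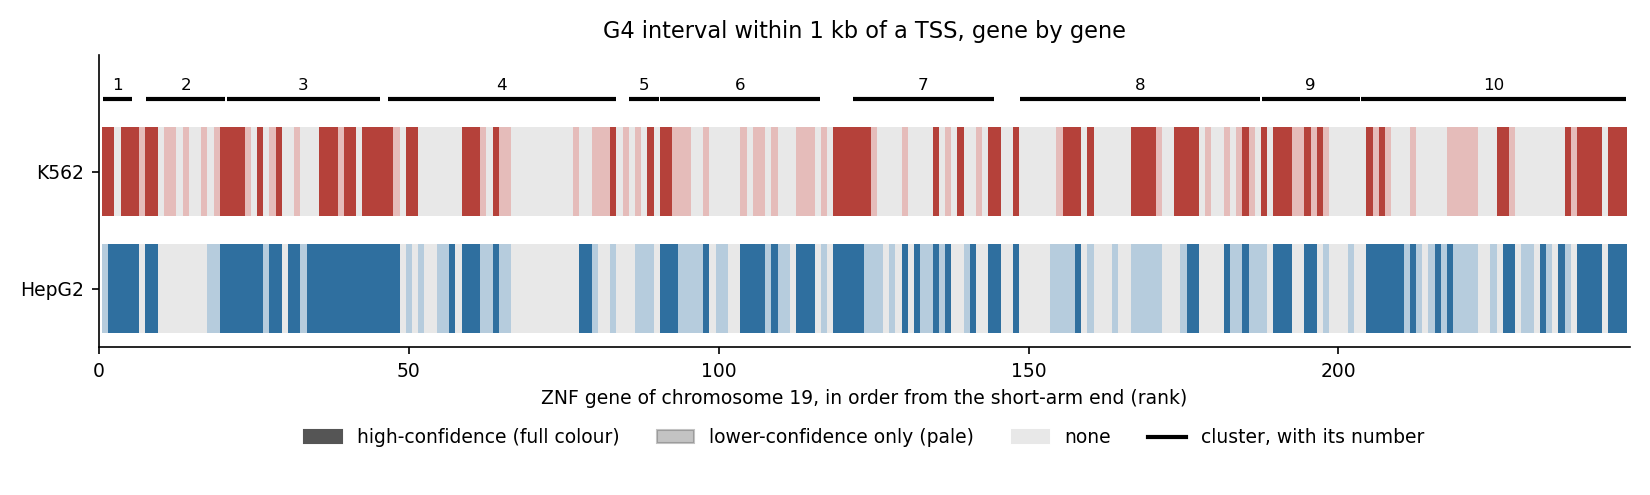
Call of every ZNF gene in chromosomal order (1 column a gene, x axis: rank) in K562 (upper row) and HepG2 (lower row), in full colour for high, pale for lower and grey for none, with black bars for the 10 clusters. With runs counted within clusters, the longest include 12 consecutive HepG2 high genes from ZNF20 to ZNF791 in cluster 3. In cluster 6, 24 consecutive genes from ZNF566 to ZNF573 were lower or none in K562. Both runs go on in the genes that follow the cluster.

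Cluster 3, from ZNF653 to ZNF791 (chr19:11594242-12750912), was the fullest of those with over 5 genes. Of its 25 genes, 13 were high in K562 (52.0%, 33.5 to 70.0) and 22 in HepG2 (88.0%, 70.0 to 95.8). All 13 K562 genes were also high in HepG2, among them ZNF653, ZNF44, ZNF799, ZNF443 and ZNF791. The 9 further HepG2 genes were lower in K562 at ZNF441, ZNF69, ZNF878 and ZNF442, and none in K562 at ZNF491, ZNF433, ZNF20, ZNF625 and ZNF709. ZNF763 was the single gene of the cluster without an interval. The 8 other protein-coding genes of the cluster were high at 5 in each line (62.5%).

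Cluster 6, from ZNF565 to ZNF573 (chr19:36673178-38307940), had few K562 genes. Of its 26 genes, 2 were high in K562 (7.69%, with an upper Wilson bound of 24.1) and 12 in HepG2 (46.2%, 28.8 to 64.5). The K562 genes were ZNF565 and ZNF146, which face away from each other from a shared promoter, and both were high in HepG2 too. ZNF566, ZNF567, ZNF420, ZNF585B, ZNF383, ZNF527, ZNF540, ZNF571 and ZNF607 were high in HepG2 and lower in K562, and ZNF585A was high in HepG2 and none in K562. ZNF585B and ZNF383 rest on 1 shared HepG2 interval of 15 bp. The cluster held 13 genes with any interval in K562 and 21 in HepG2, so the difference kept its direction with the lower-confidence lists. Of 5 other protein-coding genes in the cluster, 1 was high in each line.

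Cluster 10, from ZNF264 to ZNF446 near the end of the long arm (chr19:57702868-58992597), is the largest. Of its 43 genes, 12 were high in K562 (27.9%, 16.7 to 42.7) and 20 in HepG2 (46.5%, 32.5 to 61.1). Towards the telomere, ZNF8, ZNF497, ZNF837, ZNF584, ZNF324B, ZNF324 and ZNF446 were high in both lines, and ZNF132, between ZNF584 and ZNF324B, had no interval. ZNF547, ZNF548, ZNF549, ZNF256 and ZNF329 were high in HepG2 with none in K562, and ZNF586 was the reverse. Of the 19 other protein-coding genes in the cluster, 3 were high in K562 (15.8%) and 8 in HepG2 (42.1%), the same direction as for the ZNF genes.

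Cluster 8, from ZNF175 to ZNF331 (chr19:52074536-54083523), went the other way. Of its 39 genes, 13 were high in K562 (33.3%, 20.6 to 49.0) and 5 in HepG2 (12.8%, 5.60 to 26.7). High in both were ZNF616, ZNF816, ZNF160 and ZNF761. ZNF432, ZNF841, ZNF766, ZNF808, ZNF701, ZNF83, ZNF611 and ZNF888 were high in K562 and lower in HepG2, ZNF320 was high in K562 with none in HepG2, and ZNF845 was high in HepG2 and lower in K562. With intervals of either list, 19 genes were called in K562 and 21 in HepG2, which reverses the direction. The other protein-coding genes of the cluster were high at 3 of 15 in K562 and 2 in HepG2. It also holds 16 genes without any interval, and 17 consecutive genes from ZNF836 to ZNF888 were not high in HepG2.

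**Figure D3:**
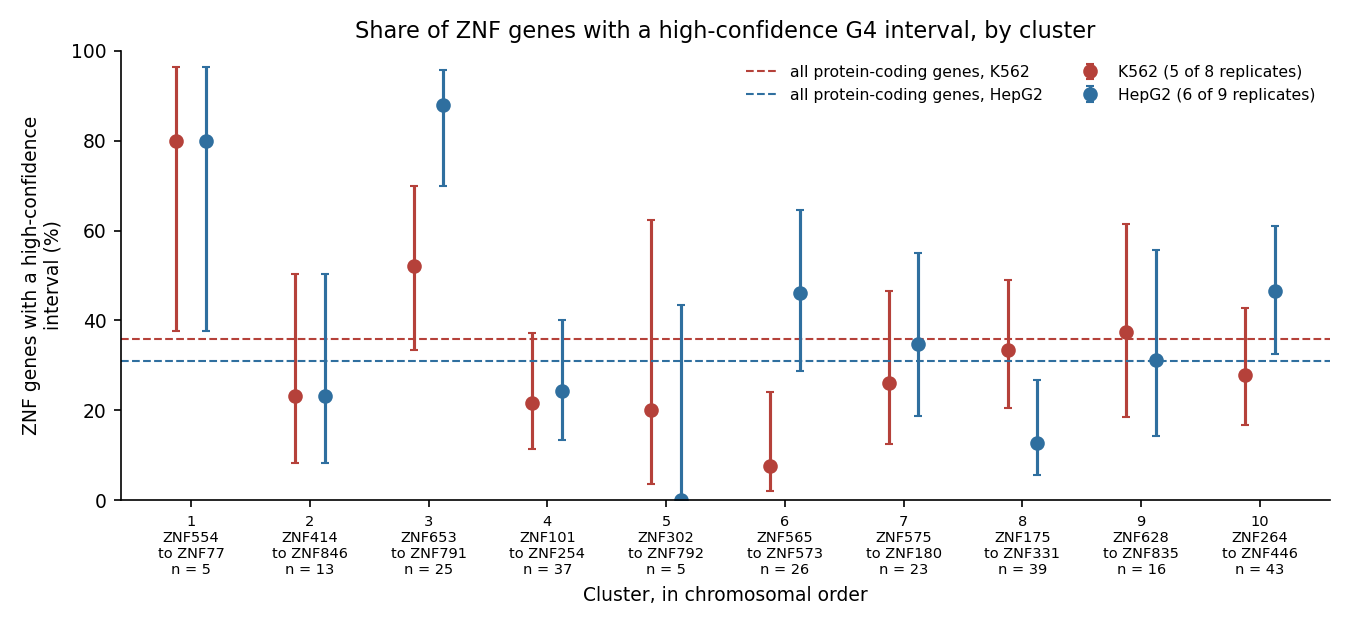
Share of ZNF genes with a high-confidence interval (%, points) in each cluster for K562 and HepG2, with 95% Wilson intervals (bars) and the share of all protein-coding genes in each line (dashed lines, 35.8% and 30.9%). HepG2 lies above K562 in clusters 3, 6 and 10 and below it in cluster 8.

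The remaining clusters differed less between the lines. Cluster 4, from ZNF101 to ZNF254 around the pericentromeric short arm (chr19:19779605-24312770), had 8 of 37 genes high in K562 (21.6%, 11.4 to 37.2) and 9 in HepG2 (24.3%, 13.4 to 40.1), with 14 genes in no list. ZNF91, known to repress SVA retrotransposons, was high in HepG2 with none in K562, and ZNF93, known to repress L1PA elements, was high in K562 with none in HepG2. Cluster 7, from ZNF575 to ZNF180, had 6 and 8 of 23 genes high in K562 and HepG2, and cluster 9, from ZNF628 to ZNF835, had 6 and 5 of 16. Cluster 2, from ZNF414 to ZNF846, had the same 3 genes in both lines, ZNF414, ZNF558 and ZNF846, of 13.

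The smallest clusters have 5 genes each. Cluster 1, from ZNF554 to ZNF77, had 4 high genes in each line, and cluster 5, from ZNF302 to ZNF792, had 1 in K562, ZNF30, and 0 in HepG2, where the Wilson interval of 5 genes reaches 43.4%. Of the 14 genes outside the clusters, 7 were high, and these were the same genes in both lines: ZNF557, ZNF333, ZNF780A, ZNF574, ZNF526, ZNF296 and ZNF473. Neighbouring genes within clusters form 222 pairs, of which 163 had the same high or not-high call in K562 (73.4%) and 154 in HepG2 (69.4%), and some of these pairs share a window or a promoter. Most of the equal calls are pairs with neither gene high, since both genes were high in 32 pairs in K562 and 49 in HepG2, and no chance level was computed.

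The genes high in 1 line with none in the other were followed gene by gene. In K562, their windows held 199 bp of high-confidence interval at ZNF320, 126 bp at ZNF582, 117 bp at ZNF235, 95 bp at ZNF93 and 64 bp at ZNF586. Each of the 5 had 1 such interval, centred within 67 bp of a TSS, and the HepG2 lists had 0 bp there. In HepG2, the 15 with the most covered bases ranged from 66 bp at ZNF433 to 360 bp at ZNF556. After ZNF556 came ZNF548 with 246 bp, ZNF20 with 199 bp, ZNF256 with 196 bp, ZNF549 with 176 bp, ZNF547 with 175 bp and ZNF491 with 153 bp. The rest were ZNF91 with 130 bp, ZNF724 and ZNF329 with 106 bp each, ZNF66 with 99 bp, ZNF585A with 86 bp, ZNF223 with 84 bp and ZNF112 with 81 bp. Coverage at ZNF547 was broken, with intervals of 158 bp, 7 bp and 10 bp.

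None of these 20 named genes had a canonical motif inside its high-confidence interval. The guanine-rich stretch of at most 30 bases with 4 runs of 2 or more guanines and the most guanines is given for the widest case in HepG2 and in K562, with those runs in capitals.
ZNF556 (chr19:2867068-2867087, plus strand): GGagctgaGGcaGGGcgtGG
ZNF320 (chr19:53400996-53401011, plus strand): GGtaGGcGGGGcctGG

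The widest coverage was found at genes called in both lines. In K562, ZNF414 had 694 bp, ZNF497 597 bp, ZNF787 568 bp, ZNF575 561 bp and ZNF558 543 bp, and in HepG2 the same genes had 218 bp, 419 bp, 420 bp, 57 bp and 111 bp. In HepG2, ZNF846 had 567 bp, ZNF44 484 bp, ZNF584 447 bp and ZNF565 and ZNF146 the same 433 bp, and in K562 these had 486 bp, 187 bp, 493 bp and 403 bp. Coverage of the windows was similar between the lines over all called genes, with a median of 187 bp in K562 (23 bp to 694 bp, 75 genes) and 184 bp in HepG2 (15 bp to 567 bp, 95 genes). Coverage is a width and not a height, and it depends on the number of replicates required.

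Of the 55 genes high in both lines, 54 had bases covered in both (98.2%), with a median of 155 common bp, against 96.7% and 185 bp over the 4823 such genes of the genome. The share is near the background. At the 55 genes, K562 covered more at 30, HepG2 at 24 and both the same at 1. Summed over the intervals of a gene, most common bases were found at ZNF846 (432 bp), ZNF497 (419 bp), ZNF576 (402 bp) and the ZNF565 and ZNF146 promoter (396 bp). The exception was ZNF575, where the K562 intervals, chr19:44037442-44037681 and chr19:44038099-44038419, and the HepG2 interval, chr19:44029801-44029857, lie at different annotated TSSs and share 0 bp.

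The motif at the widest common region and at the shared divergent promoter is shown because the intervals of both lines contain it, with runs of 3 or more guanines in capitals.
ZNF846 (chr19:9879315-9879339, minus strand): GGGcGGGGcaggaGGGcctagcGGG
ZNF846 (chr19:9896386-9896408, minus strand): GGGagatGGGGGcGGGGtctGGG
ZNF565 and ZNF146 (chr19:36705496-36705519, minus strand): GGGGtctGGGagtcctGGGcGGGG

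ZNF497 and ZNF787 had a motif within the K562 interval alone.
ZNF497 (chr19:58874125-58874149, plus strand): GGGcGGGcaccGGGtctcctGGGGG
ZNF787 (chr19:56632696-56632724, minus strand): GGGGGGcaGGGagtaGGGagaaGGGGGGG

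Intervals at ZNF genes sat just upstream of the TSS. The 90 K562 high-confidence intervals had a median centre 38 bp upstream (quartiles -79 to -9.50 bp, where minus is upstream) and the 112 HepG2 intervals 57 bp upstream (-95 to -17 bp). The centre was upstream of the nearest TSS in 81.1% (71.8 to 87.9) in K562 and 82.1% (74.0 to 88.1) in HepG2, against 79.2% and 78.1% of the intervals at all genes. The positions are thus near the background. Median widths were 179 bp in K562 and 144 bp in HepG2, against 203 bp and 182 bp at all genes. Gene bodies beyond the windows held 4 high-confidence intervals in K562 and 3 in HepG2, and 0 were centred in a coding exon, where the finger arrays are encoded.

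**Figure D4:**
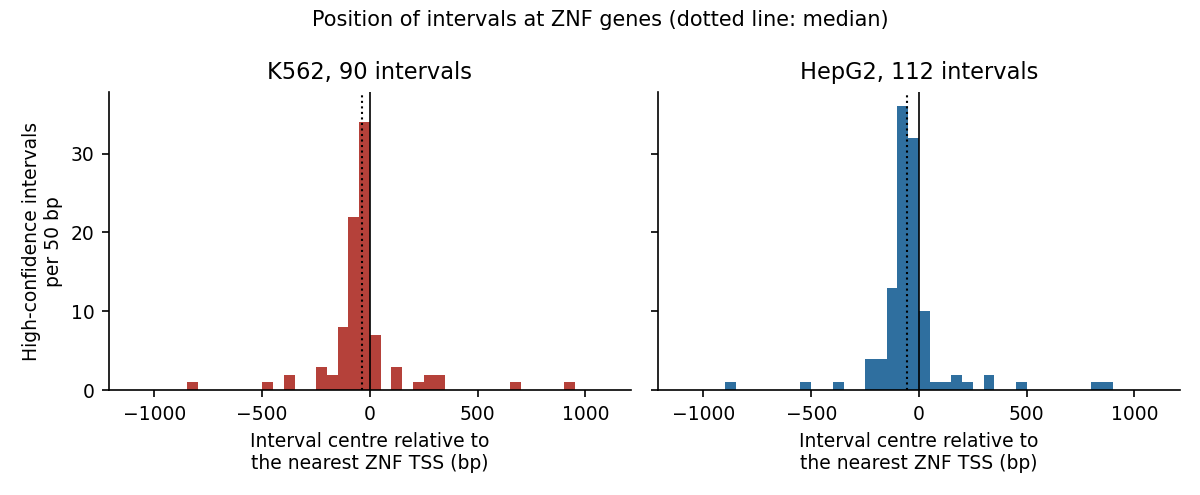
Number of high-confidence intervals per 50 bp (y axis) by the distance in bp from the interval centre to the nearest ZNF TSS (x axis, negative is upstream), for 90 intervals in K562 and 112 in HepG2. Both peak just upstream of the TSS, with medians (dotted lines) of -38 bp and -57 bp.

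A minority of these intervals held a canonical motif. In K562, 23 of 90 did (25.6%, 17.7 to 35.4), against 34.9% of intervals at all genes, and in HepG2 14 of 112 (12.5%, 7.59 to 19.9), against 25.0%. When runs of 2 guanines were allowed, 86.7% (78.1 to 92.2) in K562 and 80.4% (72.0 to 86.7) in HepG2 held a motif, against 91.1% and 85.8%. For these shares and the canonical share in K562, the background lies within the Wilson interval. The canonical share in HepG2 is below the background. The intervals at ZNF genes were also narrower, as given above, and the part of width in these shares was not tested. Motif sites in K562 intervals lay on the coding strand 14 times and on the template strand 17 times, and in HepG2 intervals 13 and 5 times. The site at the ZNF565 and ZNF146 promoter, within an intron of ZNF565, was counted for each gene. It lies on the coding strand of ZNF565 and the template strand of ZNF146. The K562 site shared by ZNF432 and ZNF841, on the template strand of both, was counted once.

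Among the ZNF genes of chromosome 19, the median GC content at the start sites was highest in genes high in both lines. The sequence within 250 bp of the representative TSS had a median GC content of 61.1% at ZNF genes and 64.7% at all genes. Within the family, the median was 65.7% in the 55 genes high in both lines, 60.3% in the 20 high in K562 and not HepG2, 60.6% in the 40 high in HepG2 and not K562, 60.5% in the 67 with lower-confidence intervals alone and 58.9% in the 64 without an interval. The ranges overlap, from 56.7% to 76.4% in the first group and from 38.9% to 74.5% in the last. Over all protein-coding genes, the median was 68.7% in genes high in both lines, 68.5% in those high in 1 line and 57.3% in those without an interval. The same medians were 68.7%, 67.3% and 59.7% for ZNF genes on other chromosomes. For other genes on chromosome 19 they were 67.5%, 69.3% and 59.9%, so there the genes high in 1 line had the highest. Of the 116 genes with a GC content above the family median, 42.2% (33.6 to 51.3) were high in K562 and 50.9% (41.9 to 59.8) in HepG2, and of the other 130 genes, 26 were high in K562 (14.0 to 27.7) and 36 in HepG2 (27.7%, 20.7 to 35.9). Of all protein-coding genes, 35.8% were high in K562 and 30.9% in HepG2, and these were not split by GC content.

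**Figure D5:**
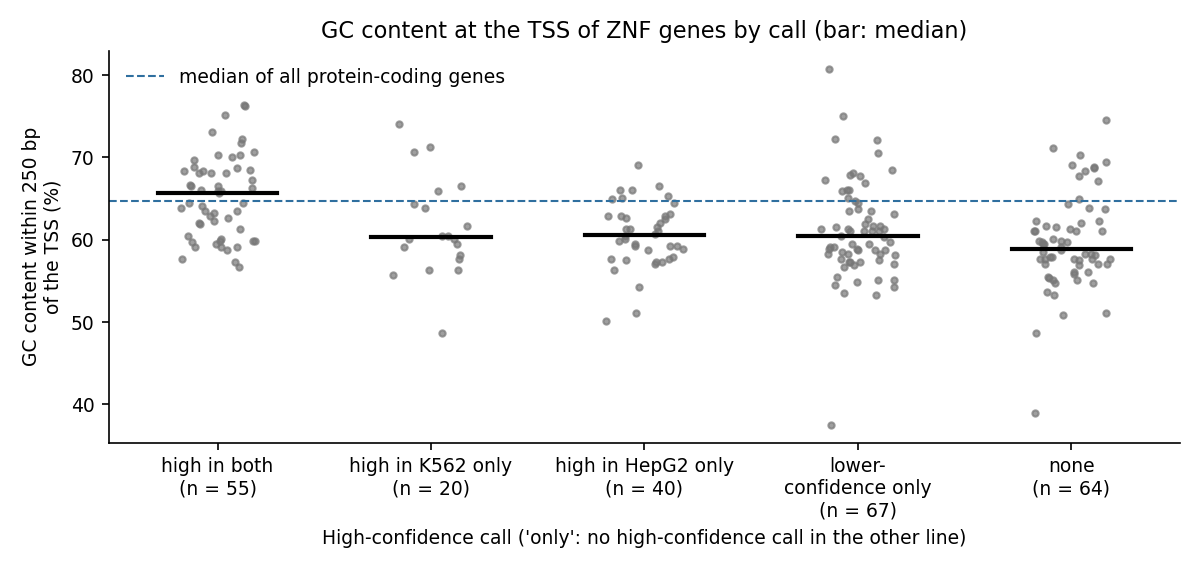
GC content (%) within 250 bp of the representative TSS of each ZNF gene (points) by call, with the median of each group (bars) and that of all protein-coding genes (dashed line, 64.7%). Genes high in both lines have the highest median, 65.7%, and all groups overlap.

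Genes with and without a canonical motif near the TSS were called at closer rates. Within 1 kb of the representative TSS, 142 ZNF genes had one (57.7%, 51.5 to 63.7), against 68.6% of all genes. Of those 142, 34.5% were high in K562 and 41.5% in HepG2, and of the 104 without one, 25.0% and 34.6%, with overlapping intervals of 27.2 to 42.6 and 17.7 to 34.1 in K562. Motifs also lay at genes without an interval. ZNF480 had 4 motifs within 1 kb of its TSS, ZNF579 had 3 and 11 genes, among them ZNF426, ZNF729 and ZNF492, had 2 each, and none of these had an interval in any list.

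The encoded proteins and the gene arrangement were compared as well. A match to the KRAB A box, searched in the first 250 residues translated from the reference, was found in 206 of the 246 genes. Of these, 53 were high in K562 (25.7%, 20.2 to 32.1, against 35.8% of all genes) and 73 in HepG2 (35.4%, 29.2 to 42.2, against 30.9%). Their HepG2 share is near the background. Of the 40 without a match, 22 were high in each line (55.0%, 39.8 to 69.3). They include ZNF653, ZNF787, ZNF574, ZNF526, ZNF146 and ZNF296. The GC content differed with it, with a median of 67.5% at genes without the match and 60.1% at genes with it, and its part in the result was not tested. The search is a match of letters, so a diverged KRAB domain can be missed.

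The median number of fingers was 13 in the family and lay between 11 and 14 in each group of calls. It was 12 in genes high in both lines, 13 in those high in K562 and not HepG2, 14 in those high in HepG2 and not K562, 11 in those with lower-confidence intervals alone and 13 in genes without an interval, over a range of 1 to 39, with 1 gene, ZNF274, left out because its annotated frame could not be read through. ZNF729, with 39 fingers, was in no list. A divergent protein-coding partner with a TSS within 1 kb was found for 13 genes, of which 8 were high in K562 (61.5%, 35.5 to 82.3, against 28.8% of the 233 without a partner and 35.8% of all genes) and 10 in HepG2 (76.9%, 49.7 to 91.8, against 36.5% and 30.9%). These include the pairs ZNF490 and ZNF791, ZNF565 and ZNF146, and ZNF540 and ZNF571, in which 1 interval can score both genes, and the pair ZNF829 and ZNF568, which had no interval.

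The proteins through which KRAB zinc finger proteins act gave a list of 17 co-repressor genes. Of these 17, 12 were high in K562 (against 35.8% of all genes), 10 in HepG2 (against 30.9%) and 8 in both (against 24.4%). TRIM28, itself on chromosome 19, had 437 bp of high-confidence interval in K562 and 419 bp in HepG2. SETDB1, which methylates H3K9, had 138 bp in each line, and of the NuRD genes listed, CHD4 and HDAC1 were high in both lines and CHD3 and HDAC2 high in K562 and lower in HepG2. Of the genes for HP1 proteins, CBX3 and CBX5 were high in both lines, and CBX1 was high in K562 and lower in HepG2. UHRF1 was also high in K562 and lower in HepG2. DNMT1 was high in both lines, and SMARCAD1 was none in K562 and lower in HepG2. Of the HUSH pathway, PPHLN1 was high in both lines, MPHOSPH8 and MORC2 were high in HepG2 and lower in K562, and TASOR, like ATF7IP, had no interval in any list. The genes were listed with earlier results of these data known, and the count is a description.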

How the data were processed

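Reads had been trimmed (cutadapt), mapped to hg19 (BWA) and freed of duplicates by the authors, who called peaks per replicate with MACS2 (q-value under 0.05) and merged replicates with bedtools multiinter. The deposited files are 4 interval lists with chromosome, start and end in bp, of 9205 and 19249 intervals for K562 and 8805 and 28387 for HepG2, the larger list of each line containing the smaller. Depth per sample is not in the lists and is unknown here, and input libraries entered the authors' peak calling alone.

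Here, intervals were scored against TSSs of GENCODE version 44 lifted to GRCh37, whose chromosome 19 has the length used in hg19. Sequence measures, motifs and translations came from that genome. The 2 read-through genes were kept out of the family. The members and lists were chosen with earlier results of these data known. Named genes were those high in 1 line and none in the other (at most 15 per line), the 5 with the most covered bp per line and in common, cluster ends, and the 5 genes without an interval with the most motifs (ties at 2 motifs in chromosomal order); genes named beside these were chosen after their values were seen. Shares have 95% Wilson intervals, which cover counting alone. The lists used here hold no replicate values, so no test was made. 1 sequence is not reported here. Functions were tested on simulated data. Alternatives were other TSS sets, windows, overlaps, widths, assignments, symbols, lists, cluster gaps and motifs. Python 3.11.15 and numpy 2.4.6 were used.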

Additional observations from a re-analysis of the deposited data

How the results depend on the processing

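With 10 other definitions of TSS, window, overlap, width, assignment and symbols, 69 to 76 genes were high in K562 and 86 to 96 in HepG2, and the difference, K562 minus HepG2, stayed between -20 and -17 genes. With the lower-confidence lists, 131 and 163 genes were called and the difference was -32. The lowest cluster share in K562 was then 40.0% and the highest in HepG2 100.0%, and the difference in the cluster from ZNF175 to ZNF331 turned from 8 to -2. Clusters were left out in turn after seeing the data, and the difference was -11 without the cluster ZNF653 to ZNF791, -10 without ZNF565 to ZNF573 and -12 without ZNF264 to ZNF446. It was -28 without ZNF175 to ZNF331, and between -21 and -18 without any of the remaining clusters. The share of ZNF genes with a motif rose from 57.7% to 83.3% with loops to 12 bases and to 100% with runs of 2 guanines, which match more sequence by construction.

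No paired analysis was possible because the lists merge all replicates of a line, so leaving out a replicate was not possible either. The unknown depth and the differing thresholds limit every comparison of the lines.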
